A study of Mus musculus with 7 samples.

Results

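The mitosis and chromosome condensation genes are 52 genes of the machinery that condenses, aligns and separates chromosomes, given as a list of names. They were found by symbol among the 53465 gene IDs of the count table. The list was chosen with earlier results of these data known, so the shares of all genes beside its counts do not test it. Each of the 52 matched 1 Ensembl ID, and all 52 passed the filter on low counts, as did 14784 genes in all. Their transcripts were counted by RNA-seq in 7 libraries of mouse liver cells that were sorted by flow cytometry for CD4 and CD25, as regulatory T cells (Treg) are. The control diet group (WT_NCD, 2 libraries) is wild type C57BL/6 mice fed a normal control diet. The deficient diet group (WT_MCD, 2 libraries) is wild type C57BL/6 mice fed a diet deficient in methionine and choline, a diet used to induce fatty liver disease. The knockout group (KO_MCD, 3 libraries) is mice lacking CD73, the ectoenzyme that makes adenosine from AMP and is encoded by Nt5e, fed the same deficient diet. The diets lasted 4 weeks. Knockout mice on the control diet were not analysed here, and the interaction of genotype and diet was not tested. The labels do not give the age or sex of the mice, the part of Nt5e that was deleted, or whether libraries came from separate animals. The p-values thus reflect library-to-library spread alone, and that spread may be technical.

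A dividing cell builds this machinery anew each cycle. Cyclins A and B activate the kinase CDK1, condensin folds the chromosomes, kinetochores tie them to the spindle, and the spindle checkpoint holds the anaphase-promoting complex (APC/C) in check until every chromosome is attached. Most of these genes are transcribed in G2 and mitosis and are silent in resting T cells, so their transcripts serve as markers of cycling cells. Treg are known to divide more than conventional CD4+ T cells in the steady state.

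The libraries held 19731501 to 24398738 counts each, and a count of 0 allows at most 0.129 to 0.158 CPM (the count scaled to a common depth, with TMM factors) at 3 counts, covering counting error only. Nt5e itself stood at 243 and 241 CPM on the control diet, 177 and 87.6 on the deficient diet and 5.88, 14.5 and 6.43 in the knockout, so all 3 knockout libraries lay below all wild type libraries. Foxp3, the lineage factor of Treg, was counted in every library. It stood at 181 and 287 CPM in WT_NCD, 141 and 108 in WT_MCD and 192, 167 and 218 in KO_MCD. Both WT_MCD libraries thus lay below both WT_NCD libraries and below all 3 KO_MCD libraries. The 8 Treg markers summed to 1598 and 1959 CPM in WT_NCD, 2383 and 813 in WT_MCD and 1689, 1982 and 1712 in KO_MCD. Of these 8, 5 were lower in WT_MCD than in WT_NCD (47.2% of all genes). In KO_MCD against WT_MCD 2 were lower (51.9% of all genes). The libraries also held RNA of other cells. The summed CPM of 15 T cell markers ran from 6488 to 16124, and that of 14 macrophage and Kupffer cell markers from 1193 to 32962, with the lowest T cell and the highest macrophage sum both in WT_MCD replicate 2. In such bulk libraries, fewer cells of a type and less RNA per cell cannot be told apart.

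Promoter sequences come first, because these genes share letters there that the list did not use. Genes of G2 and mitosis are known to carry a CHR element, bound by the MuvB complexes, and CCAAT boxes, bound by NF-Y. Windows from 250 bases before to 50 bases after the start were available from RefSeq (GRCm38.p6) for 44 of the 52 members, as 46 windows. In 33 of the 46, bases 11 to 40 after the start lay in a GENCODE transcript of the gene. For the rest, positions from the start are less certain. CHR letters were searched as TTTGAA or TTCGAA and the box as CCAAT, each on both strands. A CHR match and a CCAAT match may share 1 base. The stretches below cover the 150 bases before the start, 5' to 3' on the gene's own strand, with CHR and CCAAT matches in capitals. They show 4 of the members with the smallest p on the diet (Top2a, Hmgb2, Bub1 and Aurka), the proliferation marker Mki67, Cdc20 with a compact arrangement, and Nusap1, which has no match in its window.
Top2a (chr11:99024190-99024339, minus strand): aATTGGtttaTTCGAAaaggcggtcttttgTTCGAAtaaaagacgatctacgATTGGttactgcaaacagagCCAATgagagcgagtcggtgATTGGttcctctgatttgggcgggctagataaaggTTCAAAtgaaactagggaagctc
Hmgb2 (chr8:57511693-57511842, plus strand): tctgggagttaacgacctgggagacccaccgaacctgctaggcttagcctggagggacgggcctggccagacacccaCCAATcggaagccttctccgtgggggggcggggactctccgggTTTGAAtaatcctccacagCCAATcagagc
Bub1 (chr2:127831860-127832009, minus strand): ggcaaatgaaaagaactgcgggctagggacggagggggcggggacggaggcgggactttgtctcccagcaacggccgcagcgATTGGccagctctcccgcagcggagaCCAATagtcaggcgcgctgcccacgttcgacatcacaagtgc
Aurka (chr2:172370571-172370720, minus strand): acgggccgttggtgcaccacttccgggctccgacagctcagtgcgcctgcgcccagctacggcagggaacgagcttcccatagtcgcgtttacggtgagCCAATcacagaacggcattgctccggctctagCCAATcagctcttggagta
Mki67 (chr7:135716380-135716529, minus strand): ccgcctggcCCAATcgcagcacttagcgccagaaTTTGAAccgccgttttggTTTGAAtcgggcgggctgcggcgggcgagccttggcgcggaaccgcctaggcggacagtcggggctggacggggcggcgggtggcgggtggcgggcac
Cdc20 (chr4:118437344-118437493, minus strand): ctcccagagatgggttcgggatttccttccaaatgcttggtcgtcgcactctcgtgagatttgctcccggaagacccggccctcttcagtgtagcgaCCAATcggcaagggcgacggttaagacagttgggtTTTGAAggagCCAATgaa
Nusap1 (chr2:119618148-119618297, plus strand): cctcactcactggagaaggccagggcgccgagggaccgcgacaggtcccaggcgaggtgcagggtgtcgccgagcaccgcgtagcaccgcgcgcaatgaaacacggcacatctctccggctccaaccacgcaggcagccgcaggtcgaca
In Cdc20 the CHR letters began at position -18 from the start, between CCAAT boxes at -53 and -8. Top2a held 4 CHR matches and 6 CCAAT matches in its window, the most CHR matches of any member. In Bub1 and Aurka the CHR letters lay after the start, at positions 15 and 33, outside the printed stretch. Of the 46 member windows 36 held CHR letters (78.3%), against 19.2% of all 32851 promoter windows and 14.8% of the 12992 windows of tested genes. CCAAT was in 33 member windows (71.7%) against 37.4% of all windows, and both were in 30 (65.2%) against 7.52%. Other mitosis genes that are not members held CHR letters often too. The shares were 59.1% for other spindle and cytokinesis genes, 43.3% for other kinetochore genes and 41.2% for condensin II and cohesin genes. The remaining cell cycle lists ran from 0% (G1 cyclins and CDKs) to 37.5% (mitotic entry and exit). Among these, the DNA replication genes, which are transcribed earlier in the cycle, held CHR letters in 17.5% of 40 windows and CCAAT in 65.0%. The median GC content was 59.0% in member windows and 59.2% in the replication windows, against 52.7% in all windows and 60.0% in those of tested genes. A match is a description of letters, not a bound site.

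**Figure D1:**
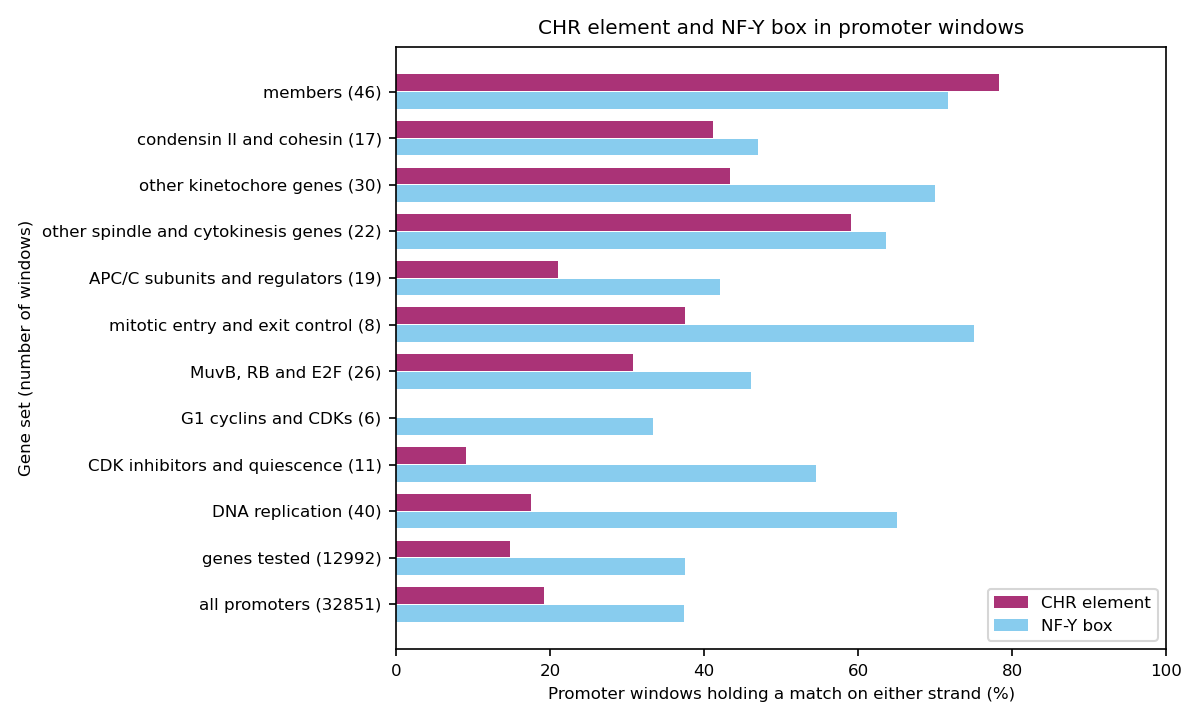
Share of promoter windows (x axis, percent) holding a CHR match (purple) or a CCAAT match, the NF-Y box (light blue), on either strand, for the members, the other cell cycle lists, the tested genes and all promoters (number of windows in brackets). The members stand at 78.3% for CHR, the other spindle and cytokinesis genes at 59.1% and the DNA replication genes at 17.5%. For CCAAT the members stand at 71.7% and the DNA replication genes at 65.0%.

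On the deficient diet, wild type libraries held less of nearly all of these transcripts. As the list was chosen with earlier results of these data known, its contrast with all genes is a description. Of the 52 members 51 had a lower fitted level in WT_MCD than in WT_NCD, where 47.2% of all tested genes were lower. The median log2 fold change of the members was -1.47 (middle 50% from -1.80 to -1.11), against 0.04 for all genes. In 46 members both WT_MCD libraries lay below both WT_NCD libraries, where 14.8% of all genes did so. No member passed an adjusted p of 0.05 in edgeR's quasi-likelihood test with Benjamini-Hochberg adjustment (0% of all genes did, and the members' adjusted p ran from 0.548 to 1). At an unadjusted p under 0.05, 17 members were lower and 0 higher, against 2.04% of all genes lower. DESeq2 called 8 members lower at an adjusted p of 0.05 (Aurka, Bub1, Hmgb2, Kif20a, Kif20b, Kif4, Nusap1 and Top2a), against 0.46% of genes with an adjusted p there, and limma voom called 0. With WT_MCD replicate 2 left out, 51 of 52 members were still lower, where 51.8% of all genes were, and the members' median was -1.93.

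**Figure D2:**
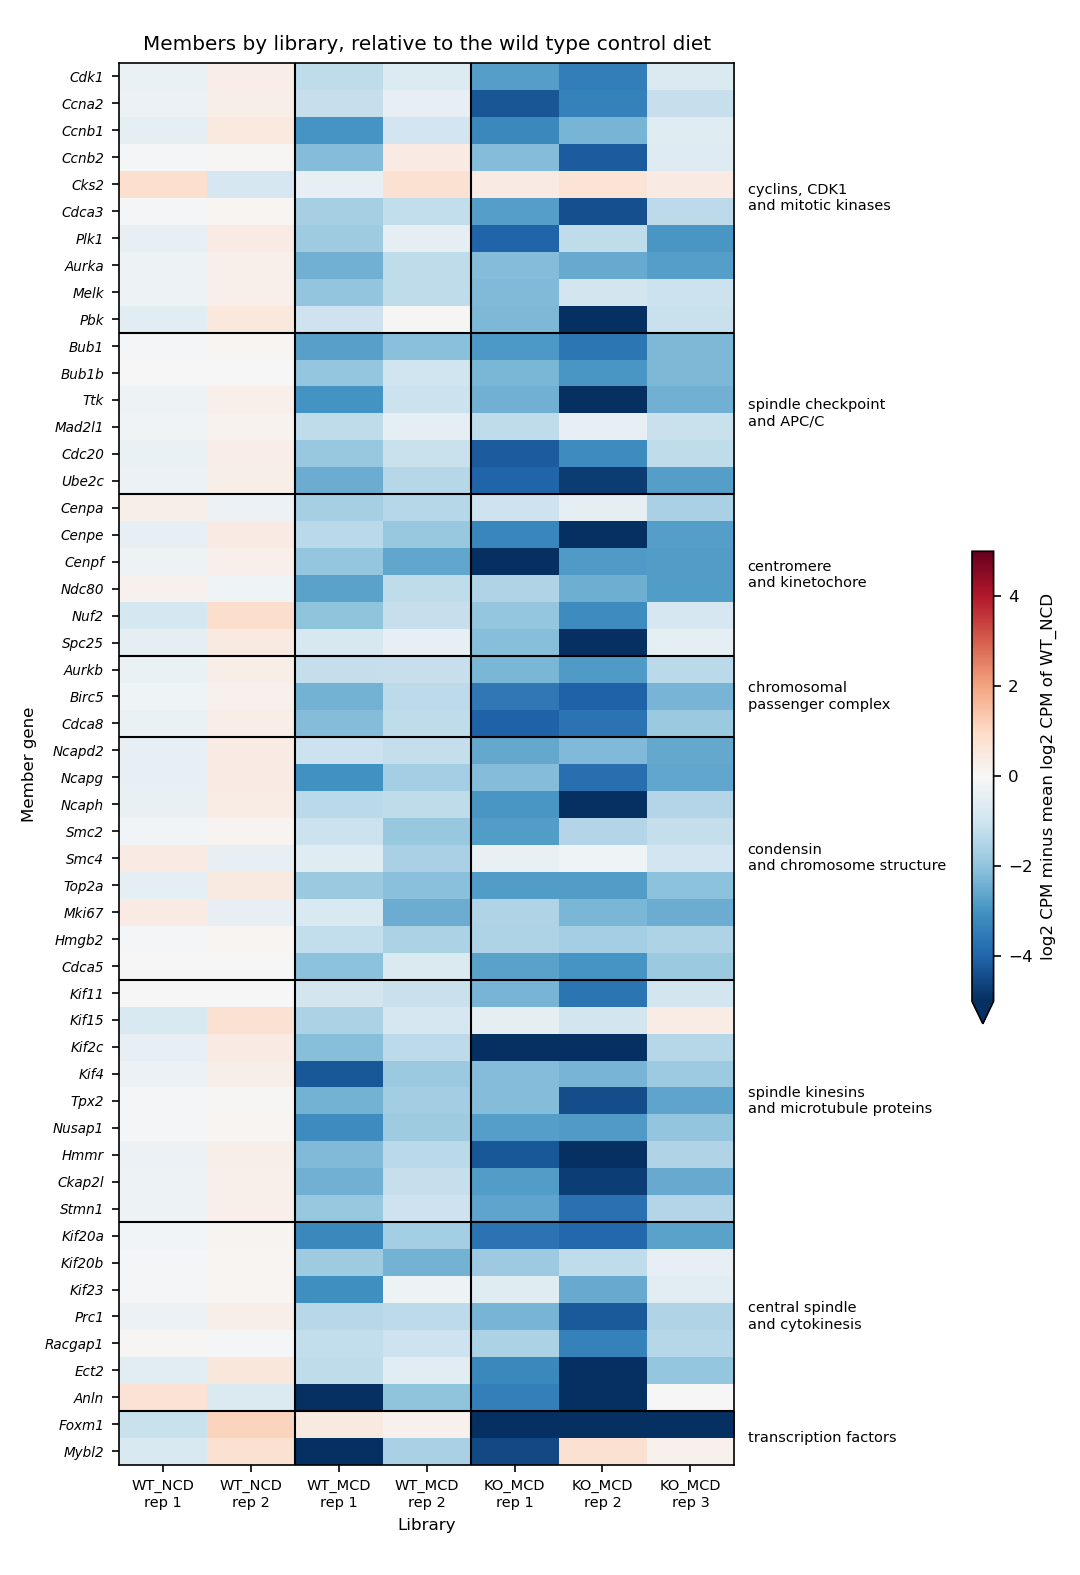
Each row is a member, by role, and each column a library; colour gives log2 CPM (prior count 2) minus the mean of the WT_NCD libraries, with values under -5 shown in the darkest blue. Nearly all rows are blue in the deficient diet columns, KO_MCD replicate 2 holds the most dark cells, and Cks2 lies on both sides of 0, from -0.84 to 0.84.

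All 9 condensin and chromosome structure genes had both WT_MCD libraries below both WT_NCD libraries. Hmgb2, a DNA-bending chromatin protein, stood at 1302 and 1521 CPM on the control diet, 594 and 466 on the deficient diet and 479, 436 and 484 in the knockout. All 5 libraries on the deficient diet thus lay below both on the control diet, and those 5 lay close together. Its log2 fold change in WT_MCD against WT_NCD was -1.41 (SE 0.27, edgeR adjusted p = 0.548). Top2a, the topoisomerase that untangles sister DNA, stood at 241 and 451 CPM on the control diet, 90.5 and 76.8 on the deficient diet and 48.0, 47.5 and 80.2 in the knockout. The groups on the 2 diets did not overlap (log2 fold change -2.05, SE 0.44, edgeR adjusted p = 0.548). Mki67, the antigen Ki-67 that coats mitotic chromosomes, stood at 187 and 106 CPM on the control diet, 82.8 and 24.9 on the deficient diet and 49.3, 28.8 and 25.1 in the knockout. The wild type groups did not overlap, though the WT_MCD libraries lay far apart. Mki67 had a log2 fold change of -1.44 (SE 0.64, edgeR adjusted p = 0.808).

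Condensin I consists of SMC2 and SMC4 with the subunits encoded by Ncapd2, Ncapg and Ncaph. All 5 genes were lower in both WT_MCD libraries than in both WT_NCD libraries, with log2 fold changes of -1.42 (Smc2), -1.07 (Smc4), -1.20 (Ncapd2), -2.29 (Ncapg) and -1.35 (Ncaph). Smc4 stood at 937 and 536 CPM on the control diet, 471 and 232 on the deficient diet and 547, 617 and 368 in the knockout, so that KO_MCD overlapped both wild type groups. Ncapd2 stood at 77.9 and 141 CPM on the control diet, 49.1 and 45.9 on the deficient diet and 17.9, 22.5 and 17.8 in the knockout. The 3 groups of Ncapd2 did not overlap, in that order. Cdca5, which encodes sororin, the protector of sister cohesion, had a log2 fold change of -1.26 (SE 0.75) on the diet.

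Among the spindle checkpoint and APC/C genes all 6 were lower in both WT_MCD libraries. Bub1, a checkpoint kinase of the kinetochore, stood at 61.5 and 70.4 CPM on the control diet, 9.99 and 15.6 on the deficient diet and 9.03, 5.25 and 13.6 in the knockout. Its log2 fold change on the diet was -2.37 (SE 0.57, edgeR adjusted p = 0.675), with KO_MCD replicate 3 between the WT_MCD libraries. Bub1b, which encodes BubR1 of the mitotic checkpoint complex, stood at 68.3 and 69.0 CPM on the control diet, 17.9 and 34.7 on the deficient diet and 14.0, 9.01 and 14.4 in the knockout. Ube2c, the ubiquitin-conjugating enzyme of the APC/C, stood at 69.8 and 104 CPM on the control diet, 15.1 and 31.6 on the deficient diet and 5.25, 3.08 and 12.5 in the knockout. For both Bub1b and Ube2c all 3 knockout libraries lay below both WT_MCD libraries. Cdc20 and Mad2l1, the APC/C activator and the checkpoint protein that restrains it, had diet log2 fold changes of -1.49 (SE 0.87) and -0.85 (SE 0.59). Ttk, the kinase that starts the checkpoint, had -1.79 (SE 1.79).

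Of the 10 cyclin and kinase genes 9 were lower on the diet, 7 of them with no overlap. Aurka, the centrosome kinase Aurora A, stood at 110 and 156 CPM on the control diet, 24.3 and 53.4 on the deficient diet and 29.2, 22.8 and 19.1 in the knockout (log2 fold change on the diet -1.77, SE 0.48, edgeR adjusted p = 0.705). Cyclin B1 (Ccnb1) stood at 46.2 and 92.8 CPM on the control diet, 8.51 and 34.0 on the deficient diet and 6.95, 13.0 and 43.3 in the knockout. Replicate 3 of the knockout was thus above both wild type libraries on the same diet, and replicate 1 was below both, with replicate 2 between. Cdk1 itself had 6.98 and 11.1 CPM in WT_NCD and 3.58 and 5.41 CPM in WT_MCD. Cks2, a small subunit of CDK complexes, was the 1 member with a higher fitted level on the diet, with 2.43 and 0.687 CPM in WT_NCD, 0.976 and 2.26 in WT_MCD and 1.75, 2.17 and 1.76 in KO_MCD. Its groups overlapped, and its log2 fold change of 0.05 (SE 1.47) turned to -0.59 without WT_NCD replicate 2. Ccnb2, Pbk, Ect2, Spc25 and Foxm1 were the other members whose wild type groups overlapped.

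At the centromere, Cenpa, the histone variant that marks it, stood at 183 and 121 CPM on the control diet, 46.6 and 54.8 on the deficient diet and 72.0, 106 and 48.3 in the knockout (log2 fold change on the diet -1.59, SE 0.44, edgeR adjusted p = 0.712). The Ndc80 complex grips spindle microtubules, and its members Ndc80, Nuf2 and Spc25 had diet log2 fold changes of -1.83 (SE 0.68), -1.78 (SE 0.89) and -0.66 (SE 1.35). The chromosomal passenger complex corrects faulty attachments. Its 3 members summed to 432 and 625 CPM in WT_NCD, 132 and 217 in WT_MCD and 53.5, 43.4 and 137 in KO_MCD. The log2 fold changes on the diet were -1.20 (SE 0.52) for its kinase Aurkb, -1.77 (SE 0.63) for Birc5 (survivin) and -1.69 (SE 0.77) for Cdca8 (borealin).

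All 9 spindle genes had both WT_MCD libraries below both WT_NCD libraries. Nusap1, a microtubule-bundling protein of the spindle, stood at 212 and 244 CPM on the control diet, 25.9 and 66.6 on the deficient diet and 33.3, 32.1 and 57.9 in the knockout. Its log2 fold change on the diet was -2.30 (SE 0.53, edgeR adjusted p = 0.597), and its KO_MCD libraries lay between the WT_MCD libraries. The chromokinesin Kif4 stood at 55.0 and 84.0 CPM on the control diet against 3.49 and 18.5 on the deficient diet and 15.2, 13.5 and 19.4 in the knockout (log2 fold change on the diet -2.66, SE 0.77). The motors of the bipolar spindle, Kif11 and Kif15, had -1.0 (SE 0.78) and -1.37 (SE 0.68), and the spindle assembly factor Tpx2 had -2.04 (SE 0.68). Of the genes of the central spindle and cytokinesis, Kif20a, a motor that moves passenger proteins to the midzone, stood at 114 and 142 CPM on the control diet, 13.6 and 38.9 on the deficient diet and 9.71, 8.24 and 20.1 in the knockout (log2 fold change -2.29, SE 0.65, edgeR adjusted p = 0.712). Kif20b, its relative, stood at 84.3 and 96.1 CPM on the control diet, 26.3 and 17.6 on the deficient diet and 25.4, 37.0 and 66.9 in the knockout. For Kif20b knockout replicates 2 and 3 were above both wild type libraries on the deficient diet, and for Kif20a none was.

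**Figure D3:**
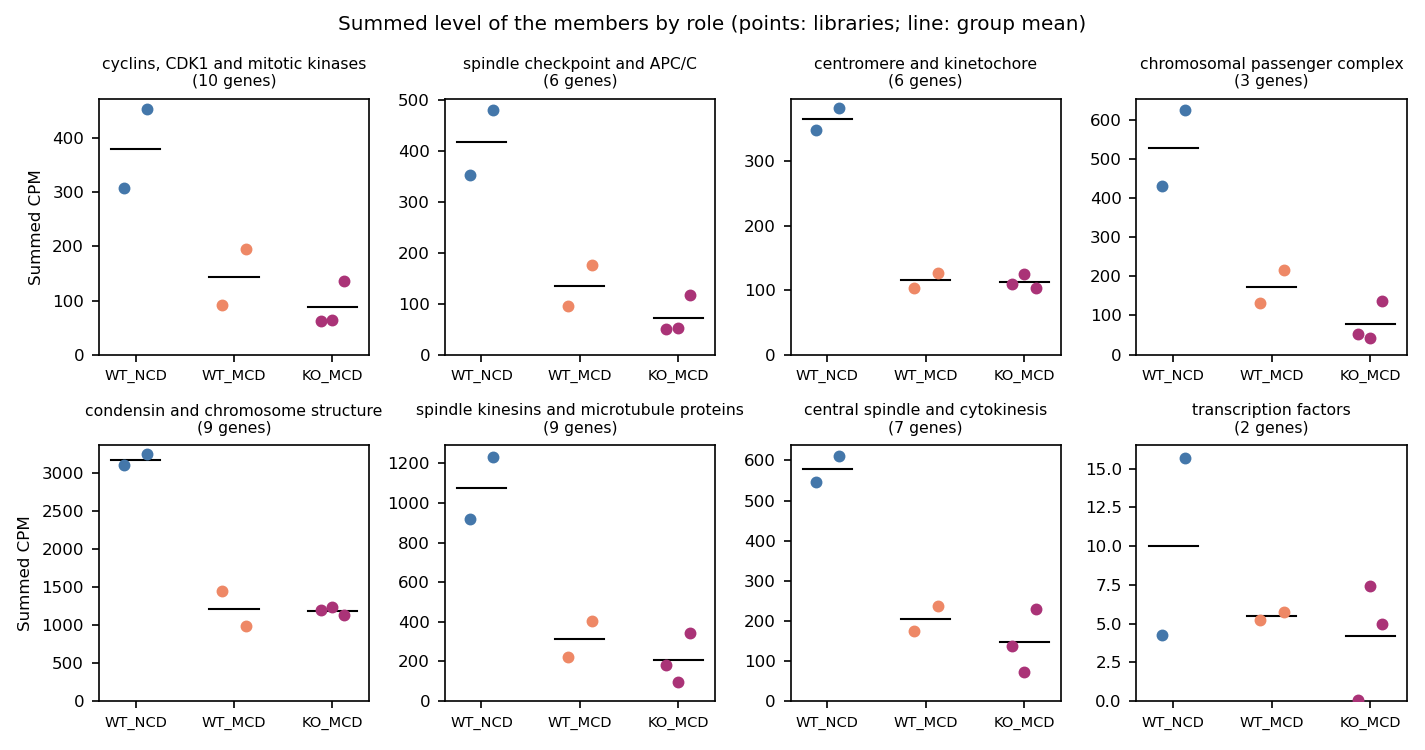
Summed CPM of the members of each role (y axis, from 0) in each library (points) with the group mean (line). The WT_NCD points lie above all other points in every panel but that of the transcription factors, and the ranges of KO_MCD and WT_MCD overlap in all 8 panels.

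Foxm1 and Mybl2 encode FOXM1 and B-MYB, transcription factors that drive the G2 and mitosis genes. Both had few counts. Foxm1 stood at 1.72 and 8.33 CPM on the control diet and 5.21 and 4.41 on the deficient diet, with no count in any of the 3 knockout libraries. With the knockout set at 3 counts summed over its libraries, Foxm1 was at least 102.5-fold lower there than in deficient diet wild type, a bound for counting error only. The edgeR adjusted p was 1, while DESeq2 called Foxm1 lower (adjusted p = 8e-05). Foxm1 overlaps exons of Tex52 and Gm44596 on its own strand, so its count is uncertain. Mybl2 stood at 2.53 and 7.39 CPM on the control diet, 0 and 1.37 on the deficient diet and 0.0971, 7.43 and 5.0 in the knockout, with overlap between the knockout and both wild type groups.

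Per kilobase of exon the members differed widely in level in WT_NCD. Hmgb2 was highest at 470 CPM per kb, followed by Smc4 (141), Stmn1 (117), Cdc20 (83.2) and Birc5 (73.7), and Foxm1 was lowest at 0.873. On this scale the control diet libraries of Stmn1 overlapped those of Smc4 and of Cdc20, and Cdc20 overlapped Birc5, so these neighbours do not differ beyond their spread. Hmgb2 and Smc4 together made up 29.2% to 37.2% of the summed CPM of all members in WT_NCD and 38.7% to 62.0% in KO_MCD. Sums are therefore given without them too, a choice made after their values were seen. Without these 2 genes the other 50 members summed to 3772 and 4999 CPM in WT_NCD, 1210 and 1649 in WT_MCD and 776, 646 and 1347 in KO_MCD. With them the sums were 6011 and 7056, then 2276 and 2347, then 1801, 1700 and 2199.

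The knockout was next set against wild type on the same deficient diet. Most members had a lower fitted level in the knockout, but the libraries of the 2 groups overlapped for most. Of the 52 members 42 were lower, where 51.9% of all genes were, with a median log2 fold change of -0.89 against -0.03 for all genes. In 13 members all 3 KO_MCD libraries lay below both WT_MCD libraries (9.66% of all genes), and in 0 members above. These were Aurkb, Bub1b, Cenpe, Cenpf, Ckap2l, Ect2, Foxm1, Ncapd2, Ncaph, Pbk, Prc1, Racgap1 and Ube2c. By edgeR 0 members passed an adjusted p of 0.05 (0% of all genes, adjusted p 1 for every member). At an unadjusted p under 0.05, 5 members were lower, Foxm1, Ncapd2, Ube2c, Bub1b and Birc5, and 0 were higher, against 2.04% of all genes lower. DESeq2 called Foxm1 alone (0.167% of genes were called lower), and voom called 0.

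The count of 5 moved with single libraries. It was 14 without KO_MCD replicate 3 (2.38% of all genes) and 2 without KO_MCD replicate 1 (1.52% of all genes). Without WT_MCD replicate 2, 35 members were lower, where 44.8% of all genes were. The members' median was then -0.50, with Ccnb1, Ccnb2, Mad2l1, Ncapg, Ndc80, Nuf2 and Nusap1 turned to higher. Without KO_MCD replicate 2 the median was -0.48.

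The members varied widely among the knockout libraries. The highest library was a median of 4.05 times the lowest over the 51 members counted in the group, against 1.78 in WT_MCD and 1.51 in WT_NCD, where a range over 2 libraries is narrower than one over 3. Over all tested genes with a count in the group that median was 2.31 in KO_MCD, 1.77 in WT_MCD and 1.82 in WT_NCD. By chi-square per degree of freedom over all genes, the pairs of KO_MCD libraries gave 88.7 to 175, below the WT_NCD pair (286) and the WT_MCD pair (320). KO_MCD replicate 2 was the lowest of all 7 libraries for 28 of 52 members, and 7 members had no count there (Pbk, Ttk, Ncaph, Kif2c, Ect2, Anln and Foxm1). Ncaph had 16.5 and 45.1 CPM in the other KO_MCD libraries, and Kif2c 1.46 and 27.2. The total of replicate 2, 21311090 counts, was the highest of the 3, and its T cell marker sum of 9229 CPM lay between theirs (7806 and 9507). KO_MCD replicate 3 was the highest knockout library by the sum over members and lay between the WT_MCD libraries for 26 of 52 members.

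Of those 5 members, Ncapd2 had a log2 fold change of -1.29 (SE 0.35), Ube2c of -1.75 (SE 0.64) and Bub1b of -1.07 (SE 0.43). Birc5, an inhibitor of apoptosis as well as a passenger protein, stood at 215 and 286 CPM on the control diet, 47.6 and 99.1 on the deficient diet and 20.9, 15.1 and 49.4 in the knockout. Its KO_MCD replicate 3 was above the lower WT_MCD library (log2 fold change -1.36, SE 0.55). Ckap2l, a protein of spindle poles, stood at 46.2 and 65.8 CPM on the control diet, 10.3 and 24.8 on the deficient diet and 7.97, 1.99 and 9.48 in the knockout (log2 fold change -1.44, SE 0.70). Kif20a had -1.05 (SE 0.56), Top2a -0.51 (SE 0.38) and Mki67 -0.65 (SE 0.56), and Mki67 turned to 0.51 without WT_MCD replicate 1.

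The other 10 members had a higher fitted level in the knockout than in WT_MCD, and none passed the test. They were Kif20b, Kif15, Cenpa, Smc4, Kif4, Melk, Cks2, Kif23, Anln and Mybl2. The log2 fold changes were 0.97 (SE 0.48) for Kif20b and 0.95 (SE 0.62) for Kif15, a spindle kinesin. Kif15 stood at 20.6 and 60.3 CPM on the control diet, 11.8 and 19.5 on the deficient diet and 26.1, 18.8 and 45.5 in the knockout, where replicate 2 lay between the deficient diet libraries. Cenpa, Smc4 and Kif4 had 0.57 (SE 0.40), 0.54 (SE 0.42) and 0.54 (SE 0.67). Melk, a kinase of dividing cells, stood at 18.2 and 26.2 CPM on the control diet, 5.49 and 9.08 on the deficient diet and 4.71, 11.5 and 10.2 in the knockout. Kif23, a central spindle motor, stood at 21.9 and 25.3 CPM on the control diet, 2.70 and 19.7 on the deficient diet and 15.3, 4.03 and 16.2 in the knockout. Anln, the scaffold anillin of the cleavage furrow, stood at 23.4 and 8.37 CPM on the control diet, 0 and 3.36 on the deficient diet and 1.21, 0 and 14.1 in the knockout. All 3 genes overlapped between the groups fed the deficient diet, with log2 fold changes of 0.27 (SE 0.64) for Melk, 0.08 (SE 0.92) for Kif23 and 1.60 (SE 2.43) for Anln. Kif23 and Anln turned to -0.21 and -1.46 without KO_MCD replicate 3, Kif23 to -0.69 and Kif4 to -0.17 without WT_MCD replicate 1.

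**Figure D4:**
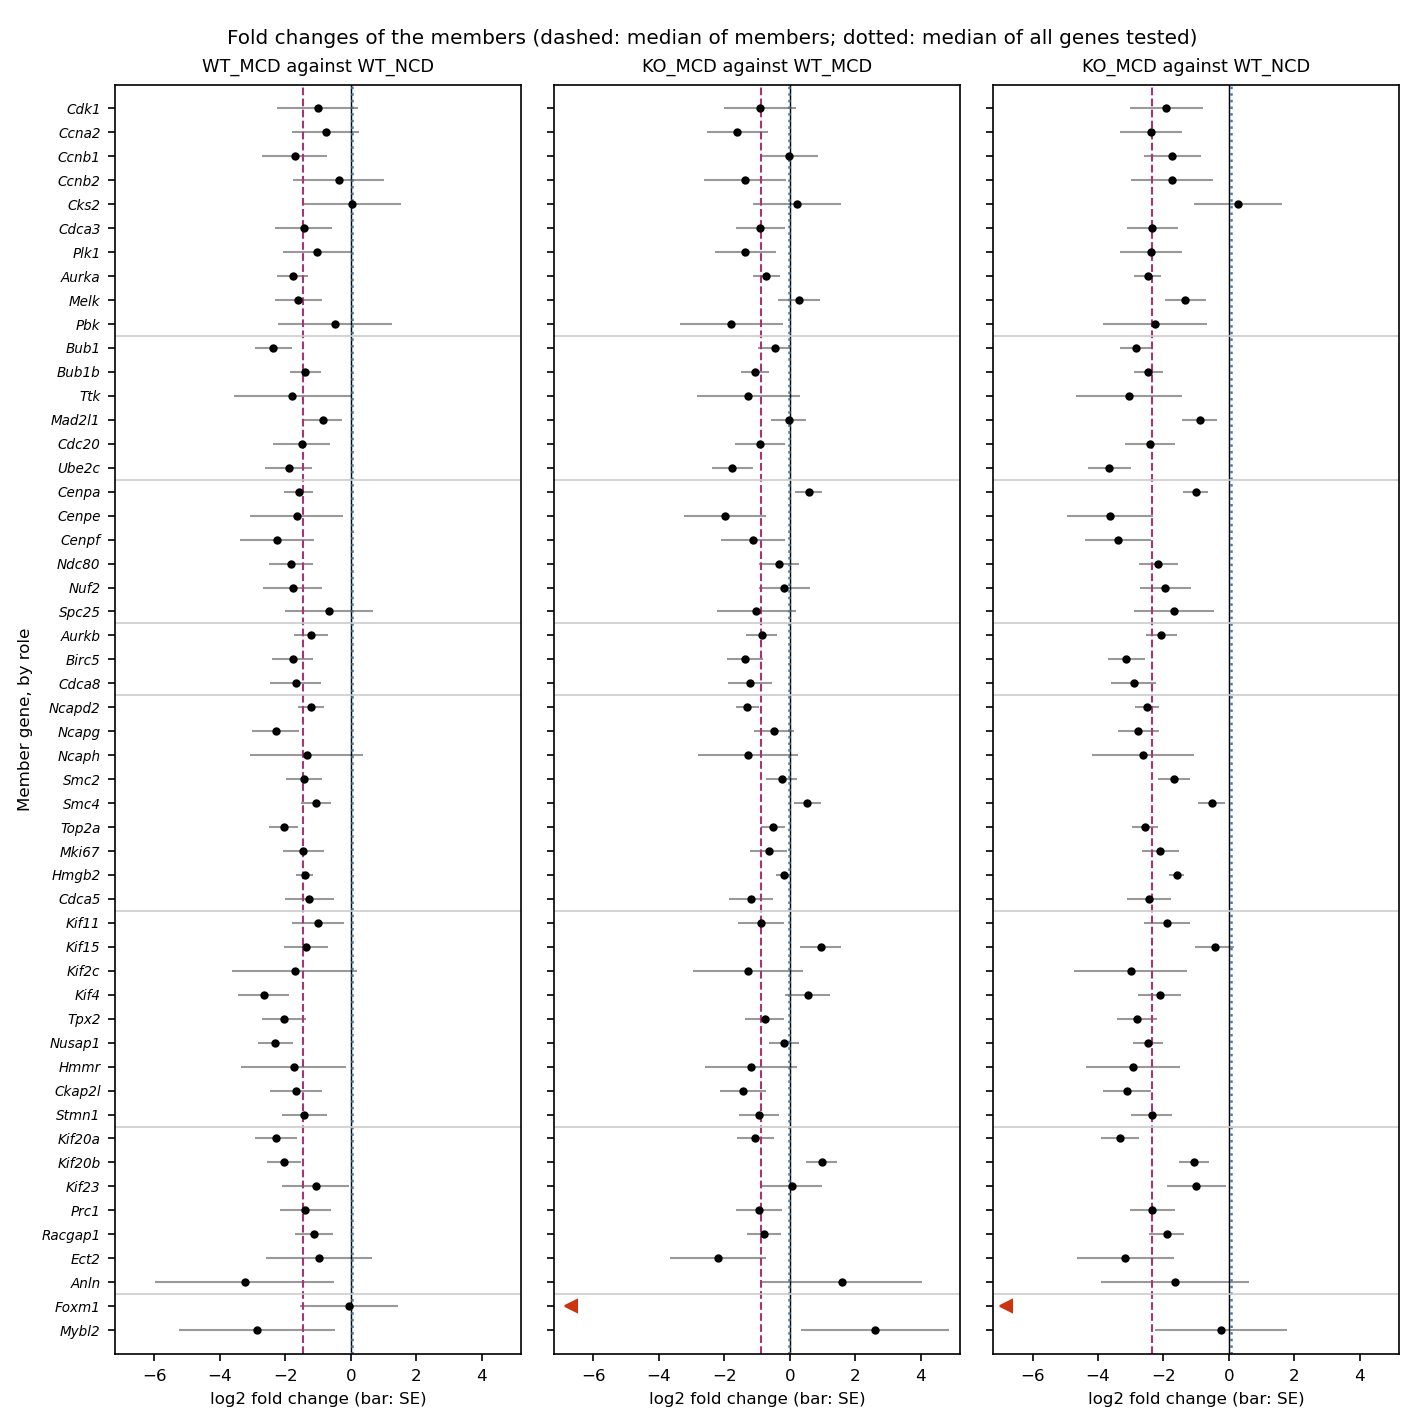
Fitted log2 fold change (x axis, edgeR) of each member with its SE (bar) in the 3 comparisons, with the median of the members (dashed) and of all tested genes (dotted); red triangles give the bound for Foxm1, which had no count in KO_MCD. The members' medians stand at -1.47, -0.89 and -2.35, and the 3 panels share libraries.

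KO_MCD against WT_NCD differs in diet and genotype at once and shares its libraries with the other comparisons. Of the 52 members 51 were lower (46.9% of all genes), with a median log2 fold change of -2.35 against 0.06 for all genes. All KO_MCD libraries lay below both WT_NCD libraries for 45 members, against 12.8% of all genes. By edgeR 0 members passed an adjusted p of 0.05 (0% of all genes, members' adjusted p from 0.203), and 34 members were lower at an unadjusted p under 0.05, against 4.25% of all genes. DESeq2 called 23 members lower, against 1.41% of genes, and limma voom called 0. Ncapd2 had the smallest p (log2 fold change -2.50, SE 0.36, edgeR adjusted p = 0.203), followed by Hmgb2 (-1.60, SE 0.24) and Top2a (-2.56, SE 0.38). Kif20a, Birc5 and Bub1 had -3.34 (SE 0.58), -3.14 (SE 0.57) and -2.83 (SE 0.50), and Aurka and Bub1b had -2.49 (SE 0.42) and -2.46 (SE 0.43). Mki67 had -2.09 (SE 0.57) and Mybl2 -0.25 (SE 2.01), while Foxm1 was at least 112-fold lower by the floor over the group. These medians keep their value with Foxm1 set at its bound. The members whose groups overlapped here were Anln, Cks2, Kif15, Mybl2, Nuf2, Smc4 and Spc25.

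Other genes of the cell cycle were read beside the members as whole lists. From each list at most the 2 genes with the smallest p in each direction in WT_MCD against WT_NCD were named. The named genes were thus picked for how they moved. In that comparison 47.2% of all genes were lower. At an unadjusted p under 0.05, 2.04% of all genes were lower there and 3.96% higher. In WT_MCD against WT_NCD, all 24 other spindle and cytokinesis genes were lower (median log2 fold change -1.52; 5 lower and 0 higher at an unadjusted p under 0.05), led by Cdca2, at 90.8 and 81.4 CPM on the control diet and 17.2 and 21.1 on the deficient diet. Of the 32 other kinetochore genes 29 were lower (median -0.85; 3 lower and 0 higher at that p). Spc24, the partner of Spc25, stood at 89.1 and 86.0 CPM on the control diet against 23.8 and 22.7 on the deficient diet, with no overlap. Of 19 condensin II and cohesin genes 16 were lower (median -0.52; 2 lower and 0 higher). Both leading genes belong to condensin II, Ncapg2 with a log2 fold change of -1.31 (SE 0.45) and Ncapd3 with -1.41 (SE 0.57). The cohesin ring subunit Smc3 had 0.27 (SE 0.36). The list of APC/C subunits and regulators had a median of -0.39 (14 of 17 lower; 0 lower and 0 higher at that p).

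Genes of mitotic entry and exit had a median of -0.84 (10 of 11 lower; 1 lower and 0 higher). The 1 was Cdc25b, a phosphatase that activates CDK1, at 79.2 and 93.8 CPM on the control diet and 32.6 and 39.5 on the deficient diet. The MuvB, RB and E2F genes had a median of 0.05 (9 lower and 12 higher of 21; 0 at that p in either direction). Of the 8 G1 cyclins and CDKs 7 were higher (7729 of 14784 genes were), with a median of 0.56 against 0.04 for all genes. At that p 0 were lower and 1 higher, where 3.96% of all genes were higher. In 1 of the 8 both WT_MCD libraries lay above both WT_NCD libraries, as in 2481 of all 14784 genes. Ccnd2, cyclin D2 of early G1, stood at 153 and 292 CPM on the control diet, 745 and 415 on the deficient diet and 419, 434 and 634 in the knockout. All 5 libraries on the deficient diet were above both on the control diet (log2 fold change in wild type 1.38, SE 0.45, edgeR adjusted p = 0.773). Of 8 tested CDK inhibitor and quiescence genes 5 were lower (1 lower and 0 higher at that p). The 1 was Cdkn1b (p27), at 92.6 and 55.3 CPM on the control diet and 39.7 and 38.0 on the deficient diet.

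Most DNA replication genes were lower as well, with a median closer to 0. Of 40 genes 35 were lower in WT_MCD (median -0.73; 5 lower and 0 higher at an unadjusted p under 0.05), among them Dnmt1 (log2 fold change -1.30, SE 0.35) and Mcm4, a subunit of the replicative helicase (-1.02, SE 0.29). In KO_MCD against WT_MCD 28 of 40 were lower (51.9% of all genes), with a median of -0.17. At that p 0 were lower and 0 higher, against 2.04% and 1.2% of all genes. The summed CPM of the 50 members without Hmgb2 and Smc4, divided by that of the 40 replication genes, was 1.28 and 1.05 in WT_NCD, 0.471 and 0.705 in WT_MCD and 0.390, 0.317 and 0.515 in KO_MCD. Both WT_NCD libraries were thus above the other 5. This is a description without a test. In KO_MCD against WT_MCD the other spindle and cytokinesis genes had a median of -0.71 (19 of 24 lower; 1 lower and 0 higher at that p), and the other kinetochore genes -0.34 (20 of 32; 0 lower and 1 higher).

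RNA of other cells differed between the libraries as well, and its part in these results was not tested. The summed CPM of the 15 T cell markers, none of them at 0 in any library, was 11425 and 16124 in WT_NCD, 13510 and 6488 in WT_MCD and 7806, 9229 and 9507 in KO_MCD. Of the 15 markers 14 were lower in WT_MCD than in WT_NCD (median log2 fold change -0.51) and 13 lower in KO_MCD than in WT_MCD (median -0.18). Macrophage and Kupffer cell markers summed to 10866 and 1193, then 2432 and 32962, then 12739, 9551 and 7430 CPM. Of those 14 markers 11 were higher in WT_MCD than in WT_NCD, and 14 were lower in KO_MCD than in WT_MCD. Of all genes, 47.2% and 51.9% were lower in these 2 comparisons. WT_MCD replicate 1 lay below all KO_MCD libraries by that sum, and replicate 2 above them. The groups did not overlap for 1 lower and 1 higher marker in the first comparison and for 1 lower marker in the second. Of all genes, 14.8% and 9.66% were lower without overlap. B and plasma cell markers summed to 315 and 128 CPM in WT_NCD, 337 and 596 in WT_MCD and 1025, 892 and 398 in KO_MCD, and 9 of 10 were higher in WT_MCD than in WT_NCD. Of the 8 NK cell markers all 8 were higher in WT_MCD, with sums of 38.2 to 49.5 CPM in WT_NCD and 138 to 305 CPM in the other 5 libraries. Monocyte and neutrophil markers (2679 CPM) were also highest in WT_MCD replicate 2, and dendritic cell markers (884 CPM) in KO_MCD replicate 3. Of the 8 dendritic cell markers 7 were higher in WT_MCD than in WT_NCD, all 7 without overlap, as were 2481 of all 14784 genes. The remaining 1 was lower, also without overlap. Hepatocyte markers summed to 44.9 and 10.6 CPM in WT_NCD, 4.46 and 41.9 in WT_MCD and 0.0971, 3.53 and 4.38 in KO_MCD.

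Endothelial and stellate cell markers summed to 217 and 231 CPM in WT_NCD, 108 and 98.5 in WT_MCD and 132, 81.1 and 80.4 in KO_MCD, so both control diet libraries lay above the other 5. Most of that sum was Pecam1, an adhesion molecule of endothelium and of some leukocytes, at 173 and 222 CPM on the control diet and 52.9 to 119 CPM in the other 5 libraries, and the stellate cell gene Lrat had no count in any library. Erythroid markers summed to 95.1 and 79.2 CPM in WT_NCD, 86.6 and 358 in WT_MCD and 98.0, 90.6 and 71.1 in KO_MCD. Of these, the globin gene Hba-a1 stood at 25.5 and 25.7 CPM on the control diet, 19.3 and 220 on the deficient diet and 7.97, 3.62 and 21.1 in the knockout. Alas2, the heme synthesis enzyme of erythroid cells, stood at 16.2 and 14.6 CPM on the control diet, 0.976 and 37.8 on the deficient diet and 6.31, 0 and 5.10 in the knockout. Klf1, a transcription factor of that lineage, reached 0.143 CPM in 1 library and had no count in the other 6. The part of these cells in the results was not tested either.

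Set against the T cell markers, the 50 members without Hmgb2 and Smc4 gave ratios of 0.330 and 0.310 in WT_NCD, 0.0896 and 0.254 in WT_MCD and 0.0994, 0.0700 and 0.142 in KO_MCD. All 5 libraries on the deficient diet were below both on the control diet on this scale as well, with WT_MCD replicate 2 nearest to them. With libraries scaled to the T cell markers in place of TMM, 46 of 52 members were lower in WT_MCD than in WT_NCD, with a median log2 fold change of -0.83. Under that scaling 22.3% of all tested genes were lower and their median was 0.66. At an unadjusted p under 0.05, 2 members were lower with it, against 0.345% of all genes. In KO_MCD against WT_MCD 43 members were lower with it, against 51.5% of all genes (median -0.93, all genes -0.03).

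**Figure D5:**
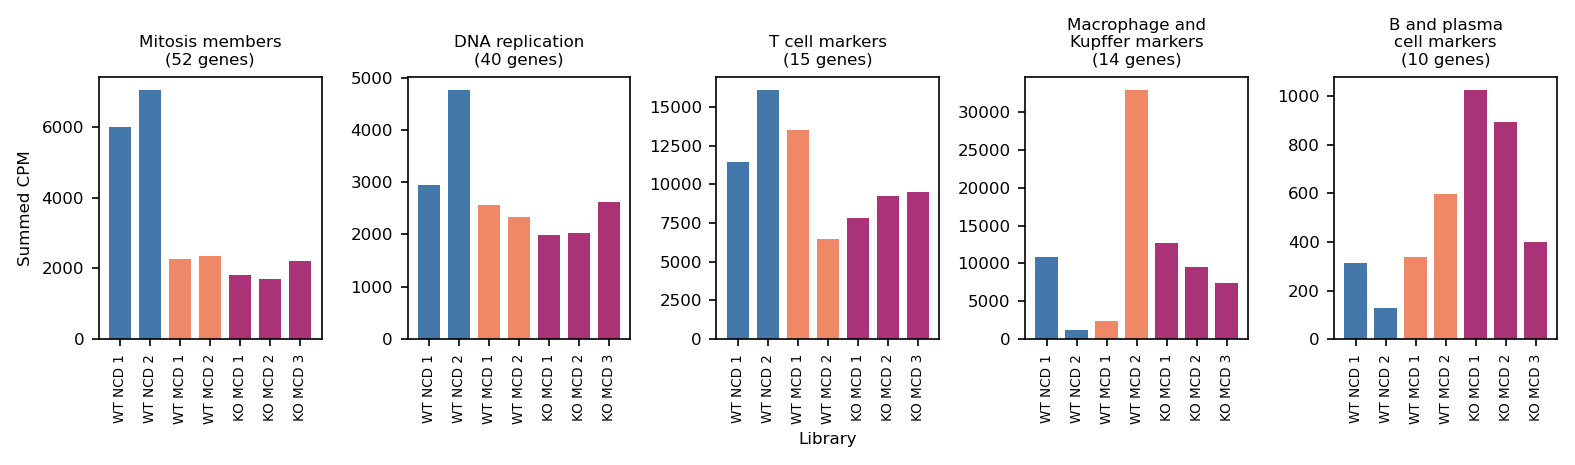
Summed CPM (y axis, from 0) per library of the 52 mitosis members, the DNA replication genes and 3 marker lists of cell types; colours give the groups (blue WT_NCD, orange WT_MCD, purple KO_MCD). The members are highest in both WT_NCD libraries, while macrophage markers are highest in WT_MCD replicate 2 at 32962 CPM.

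Some counts are uncertain because exons overlap those of other genes in the annotation. Ncapd2, Top2a, Stmn1 and Foxm1 overlap genes on their own strand. Ccna2, Plk1, Cdc20, Ube2c, Cdca8, Ncapg, Kif4, Nusap1, Ckap2l, Kif20a and Prc1 overlap genes on the other strand, which the counts separate only if the counting used strand.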

How the data were processed

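The authors deposited raw counts of reads per Ensembl gene with a column for each of the 7 libraries, matched here to samples by title. The submitters' processing notes name HISAT2 2.1.0 and GRCm38. The counting tool, its gene models and its use of strand were not given in the sources used here. Symbols, exon lengths and overlaps came from GENCODE M21 (GRCm38), which held 53360 of the 53465 IDs.

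The main test was edgeR's quasi-likelihood F test (edgeR 4.0.16, R 4.3.3) over all 7 libraries with a mean for each group, after TMM scaling and removal of low genes by filterByExpr (minimum count 10). Benjamini-Hochberg adjustment ran over the 14784 genes left. The SE is the log2 fold change over the root of F, and fitted fold changes carry a prior count of 0.125. The dispersion common to all genes was 0.833, or 91.3% as a coefficient of variation. Alternatives were DESeq2 1.42.0, limma 3.58.1 (voom), other scalings and filters, a replicate block, 2 groups alone and each library left out. The edgeR script was tested on simulated data.

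Libraries of a group differed far beyond sampling noise (chi-square over its degrees of freedom 88.7 to 320), so none was counted as a duplicate. The members and lists were chosen with earlier results of these data known. Values in every library are given by rule for Mki67, Top2a, Foxm1 and Mybl2, for the 8 members with the smallest p in each comparison and for members against the direction of most. Other members were named to fill their roles after their values were seen.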

Additional observations from a re-analysis of the deposited data

How the results depend on the processing

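Libraries were few (2, 2 and 3) and varied widely, which limits every count here. By edgeR 0 members passed an adjusted p of 0.05 in any comparison, and this held under all alternatives of scaling, blocking and left-out libraries that were run. It did not hold with no filter on low counts, which called 1 member in WT_MCD against WT_NCD, 0 in KO_MCD against WT_MCD and 18 in KO_MCD against WT_NCD, or with DESeq2, which called 8, 1 and 23. Of all genes, 0.00474%, 0.00474% and 0.256% were lower without the filter at that threshold, and 0.46%, 0.167% and 1.41% with DESeq2. Members lower at an unadjusted p under 0.05 numbered 17, 5 and 34 in the 3 comparisons (2.04%, 2.04% and 4.25% of all genes). Scaled to T cell markers they numbered 2, 4 and 21 (0.345%, 1.27% and 1.19%), without a filter 31, 10 and 40 (1.6%, 2.16% and 3.62%), and with voom 30, 8 and 44 (2.51%, 2.75% and 5.59%). In WT_MCD against WT_NCD the groups alone gave 31 (1.83%), and in KO_MCD against WT_MCD they gave 2 (1.93%) and total counts without scaling gave 3 (1.47%). In KO_MCD against WT_MCD the numbers ran from 2 to 14 with each KO_MCD library left out in turn (1.26% to 2.38%). Numbers at an unadjusted p under 0.05 are not given for fits that left 1 library in a group. The members' medians kept their sign under every alternative.

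With the replicate block the numbers were 20, 12 and 35 (1.18%, 1.2% and 2.66% of all genes). Deviations of same-numbered libraries from their group means had correlations from -0.10 to 0.03. In a group of 2 libraries these deviations mirror each other, so this check cannot decide whether same-numbered libraries were paired. In WT_NCD and WT_MCD the correlation was -0.10. With those groups alone, a same-number replicate block gave 31 (1.19% of all genes) and a crossed one 29 (1.46%). Both were chosen after seeing the data, as were the left-out libraries for the number of members lower. That number ran from 50 to 51, from 35 to 43 and from 50 to 51, by comparison. Of all genes, 40.5% to 51.8%, 44.8% to 53.3% and 42.9% to 48.3% were lower in those fits.

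Among the members that the rule named for the same comparison, log2 fold changes turned sign as follows, and the cause was not tested. In WT_MCD against WT_NCD Foxm1 had 0.67 scaled to T cell markers, 0.26 with voom, 0.30 with the replicate block, 1.48 without WT_NCD replicate 2 and 0.05 without WT_MCD replicate 2, and Cks2 had -0.59 and -0.67 without the same libraries. In KO_MCD against WT_MCD Kif23 had -0.24 scaled to T cell markers, and Anln -2.46 with the replicate block. Without WT_MCD replicate 1 Mki67, Cks2, Melk, Kif4 and Kif23 had 0.51, -0.21, -0.0043, -0.17 and -0.69. Kif23 had -0.15 without KO_MCD replicate 1 and -0.21 without KO_MCD replicate 3, and Anln -1.46 without the latter. In KO_MCD against WT_NCD Mybl2 had 0.40 scaled to T cell markers, 0.72 without WT_NCD replicate 2 and 0.33 without KO_MCD replicate 1, and Cks2 -0.36 without WT_NCD replicate 2. Over the libraries left out in turn, Foxm1 ran from -0.79 to 1.48 and Cks2 from -0.67 to 1.23 in WT_MCD against WT_NCD. In KO_MCD against WT_MCD the ranges were -1.27 to 0.51 (Mki67), -0.21 to 0.95 (Cks2), -0.0043 to 0.68 (Melk), -0.17 to 2.20 (Kif4), -0.69 to 2.13 (Kif23) and -1.46 to 9.77 (Anln, which had no count in WT_MCD replicate 1). In KO_MCD against WT_NCD they were -0.96 to 0.72 (Mybl2) and -0.36 to 1.46 (Cks2). Other members turned too. Ccna2, Ccnb2, Pbk and Spc25 did so in WT_MCD against WT_NCD scaled to T cell markers, Pbk without WT_NCD replicate 2 and Ccnb2 without WT_MCD replicate 1. In KO_MCD against WT_MCD 7 members turned to higher without WT_MCD replicate 2, Hmgb2 and Smc2 without WT_MCD replicate 1, and Ccnb1, Mad2l1, Nuf2 or Smc2 in some other settings. In KO_MCD against WT_NCD Kif15 and Smc4 turned scaled to T cell markers, and Kif15 without WT_NCD replicate 2.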
